A study of Mus musculus with 21 samples.

Results

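Ribosome biogenesis genes are described here across 4 states of murine pancreatic ductal adenocarcinoma (PDAC) cells that acquired and then lost resistance to a MEK inhibitor (MEKi). The genes were 37 named members of the pathway that makes ribosomes in the nucleolus, out of 34478 genes in the table. They were taken by name, with earlier results of these data known. All 37 were expressed in every sample, passed the filter on low values and were tested together with 19300 genes in all. Primary low-passage cells came from spontaneous tumors of genetically engineered mice, so every sample, parental cells included, carried Cre expressed from Ptf1a (Ptf1a wt/Cre) and Trp53 floxed on both copies (Trp53 loxP/loxP). The 6 lines (#3, #4, #6, #7, #9 and #10) were sequenced as untreated parental cells, as resistant cells grown in trametinib, a MEK inhibitor, at many times their own IC50, and as P12 cells, which had gone 12 passages without the drug. Lines #3, #7 and #9 were also sequenced at P5, after 5 passages without it. Each line gave 1 sample per state, so the 6 lines (3 at P5) are the replicates, for a total of 21 samples. For the P5 samples of lines #7 and #9 one label field gives 12 passages, whereas the title and the state label give 5, and they were kept as P5. By the study's own genome sequencing of some lines, a resistant population had expanded from a single clone, so a parental and a resistant sample of a line can also differ by the clone they represent.

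Ribosomes are built in the nucleolus. RNA polymerase I transcribes a long precursor rRNA, small nucleolar ribonucleoproteins (snoRNPs) guide its chemical modification, and a succession of assembly factors cuts and folds it with ribosomal proteins into the small and the large subunit. The pathway takes up much of a growing cell's resources, and it is known to respond to growth factor signalling through MEK and ERK and to the transcription factor Myc. The libraries held polyadenylated mRNA, so the values below are mRNA levels of the factors and not rRNA or ribosome output.

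Promoters of the members with the smallest p-values between resistant and parental cells are shown first, except that of Fbl, which had the smallest p and no entry in the promoter table. Each of these genes was lower in 5 or 6 of the 6 lines, and so were uncalled members such as Polr1a, Nolc1 and Npm1. Each sequence is the 250 bases before the RefSeq gene start, 5′ to 3′ in the direction of transcription, from RefSeq on GRCm38.p6. Dkc1 lies at chrX:75095604-75095853 (plus strand), Polr1b at chr2:129100746-129100995 (plus strand) and Gar1 at chr3:129831397-129831646 (minus strand). Imp4, at chr1:34439579-34439828 (plus strand), was added after its values were seen, because it was the one called gene, of those with a promoter entry, that held the E-box CACGTG, the sequence Myc and Max bind. Capitals mark a CACGTG or a CCGGAA read on either strand, the latter being the core of ETS factor sites.
Dkc1: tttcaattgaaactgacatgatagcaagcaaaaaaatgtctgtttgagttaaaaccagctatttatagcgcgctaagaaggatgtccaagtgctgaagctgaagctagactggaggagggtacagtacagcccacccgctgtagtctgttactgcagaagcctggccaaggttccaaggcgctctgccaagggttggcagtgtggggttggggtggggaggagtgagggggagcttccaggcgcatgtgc
Polr1b: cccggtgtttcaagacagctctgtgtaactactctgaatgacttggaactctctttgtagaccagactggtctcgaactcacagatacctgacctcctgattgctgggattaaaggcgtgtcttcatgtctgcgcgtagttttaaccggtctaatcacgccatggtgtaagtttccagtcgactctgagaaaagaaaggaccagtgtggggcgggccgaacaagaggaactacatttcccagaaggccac
Gar1: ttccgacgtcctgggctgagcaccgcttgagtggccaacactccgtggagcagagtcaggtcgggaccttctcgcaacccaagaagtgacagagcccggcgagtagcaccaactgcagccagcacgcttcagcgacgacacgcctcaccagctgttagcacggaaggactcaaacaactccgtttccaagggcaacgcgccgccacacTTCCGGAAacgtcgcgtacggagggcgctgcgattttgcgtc
Imp4: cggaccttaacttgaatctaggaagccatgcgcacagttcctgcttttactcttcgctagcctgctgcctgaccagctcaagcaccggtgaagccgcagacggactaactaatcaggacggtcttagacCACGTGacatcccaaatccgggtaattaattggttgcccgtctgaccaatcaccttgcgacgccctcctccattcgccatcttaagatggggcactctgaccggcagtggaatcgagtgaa
In Gar1 the capitals hold CCGGAA on both strands, as 2 overlapping matches. Of the members, 33 had an entry, with 42 promoters in all. CACGTG stood in 3 of the 42 member promoters (7.14%, in Imp4, Nop2 and Rrn3) and in 6.02% of all 32851 promoters of that length. CCGGAA stood in 10 of the 42 (23.8%) and in 12.0% of all promoters. The 2 motifs do not overlap, both strands were searched, and a match is a description of the sequence only.

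Resistant cells were compared with parental cells to see what growth under the drug had changed. Of the 37 members 5 fell and 0 rose: Fbl, Dkc1, Polr1b, Gar1 and Imp4, by 1.47-fold to 1.84-fold (limma across all genes tested on log2(normalized count + 1), Benjamini-Hochberg adjusted p below 0.05). Without adjustment 10 members had a p below 0.05 in the lower direction and 0 in the higher. Among all 19300 genes 2827 had one in the lower direction and 2815 in the higher. Over all genes tested, 7.9% were called lower and 7.73% higher, so the share of members called lower was 13.5%. The difference was negative in 30 of the 37 members, with a median of -0.33 on the log2 scale, where the median of all genes was 0.00 and 50.4% were negative. In bulk RNA, fewer cells that express a gene and less of its mRNA per cell cannot be told apart.

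The count of called members depended on which lines were included. Without line #7 it was 13 (7.76% of all genes were then called lower): the 5 above and Ncl, Npm1, Lyar, Wdr12, Nop16, Nop56, Nop2 and Ddx18. Without line #3 or #6 only Polr1b was called, without line #10 only Fbl, and without line #4 none was, with 6 members at an unadjusted p below 0.05. Fewer genes of any kind were called in these fits: of all genes 4.14% were lower without line #3, 3.79% without line #6, 4.75% without line #10 and 4.61% without line #4. With the cell line as a block, which pairs the samples of a line, 9 members were called lower (13.2% of all genes were), adding Nop16, Wdr12, Rrp1b and Ncl. Polr1b, Gar1 and Rrp1b were lower in all 6 lines, 3 of 37 members, where 9.49% of all genes were lower in every line. These shares of members stood close to those of all genes in the count of lines, and above them in this paired test (9 of 37). A paired fit of the resistant and parental samples alone called 2 of 37 members lower. It called 1437 of 19300 genes lower, so there the members did not stand above all genes.

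**Figure D1:**
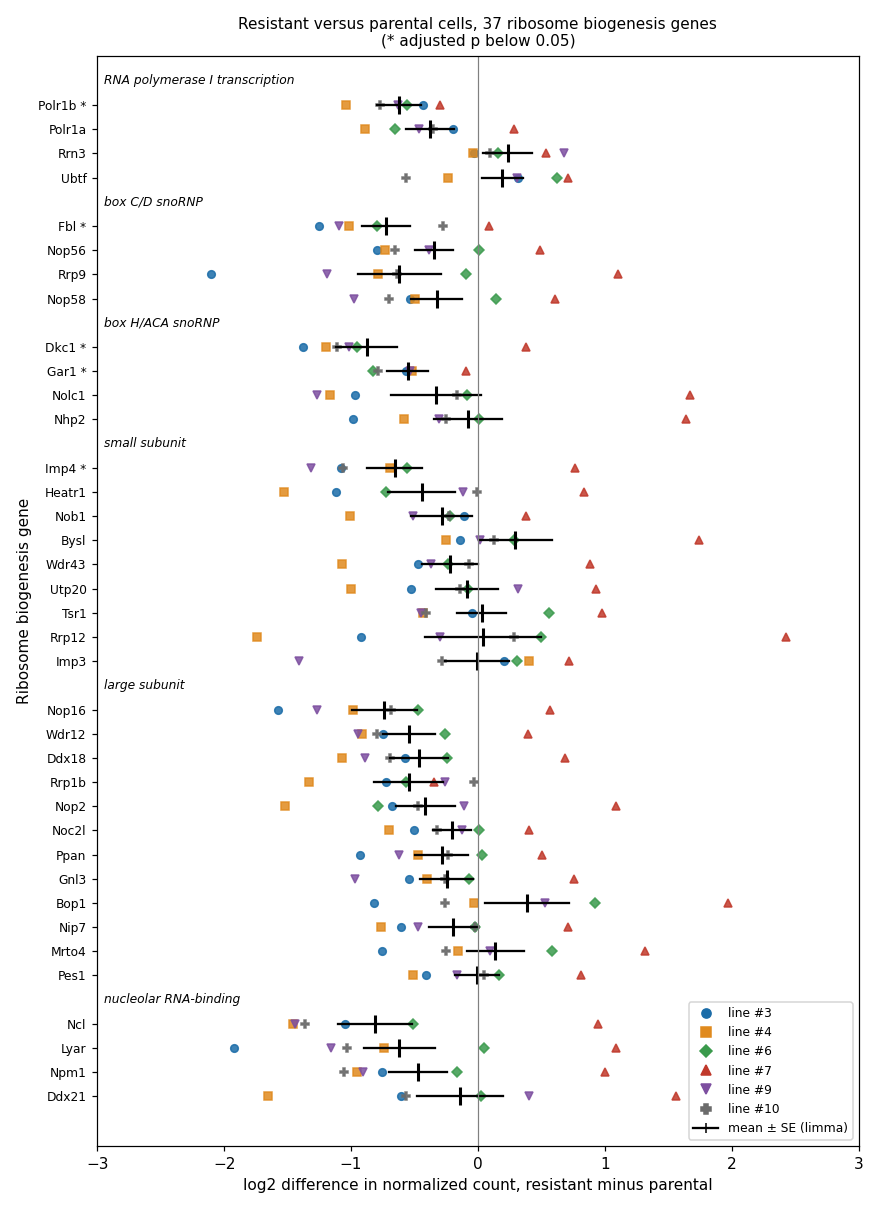
Log2 difference in normalized count between resistant and parental cells (x axis) for each of the 37 genes (y axis, grouped by role and ordered by p within a role). Symbols are the 6 lines, and the black bar is the mean ± SE over lines from limma, with asterisks at an adjusted p below 0.05. Line #7 lies to the right of the other lines for nearly every gene, and the means of 30 genes lie below 0.

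The RNA polymerase I genes did not move as 1 block. Polr1b, the second-largest subunit of the polymerase, ranged in parental cells from 2873 normalized counts in line #6 over a median of 3417 to 4004 in line #4. In resistant cells it ranged from 1948 in line #6 over a median of 2079.6 to 2839 in line #3. Its lowest parental value lay above its highest resistant value, which was so for no other member and for 3.16% of all genes in this direction. Polr1b fell by 0.62 on the log2 scale (SE 0.17, limma adjusted p = 0.0203), in 6 of 6 lines. At P5 line #3 had 4074, line #7 had 2462 and line #9 had 3192, and at P12 it ranged from 1690.5 to 3429.6. Line #3 was thus back at its parental level of 3826 at P5, and line #9 at 3192 against 3215, while line #7 went on from 2674 to 2462.

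Polr1a, the largest subunit, ranged from 5362 over a median of 8103 to 11428 in parental cells and from 5047 over 6075 to 8199.8 in resistant cells. Its difference of -0.38 (SE 0.19) did not pass (limma adjusted p = 0.183), and the groups overlapped over most of their range. At P5 line #3 had 8379.6, line #7 had 5781 and line #9 had 9755. The initiation factors had positive differences: Ubtf, which binds rDNA as UBF, was at 0.19 (SE 0.16, adjusted p = 0.472) and Rrn3, which brings the polymerase to the promoter, at 0.23 (SE 0.19, adjusted p = 0.455). Ubtf ranged from 3769 over 5199.5 to 6615 in parental and from 4463 over 5948 to 8128 in resistant cells. Both factors were higher in resistant cells in 4 of 6 lines, and neither passed the test.

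The box C/D snoRNP proteins, which methylate rRNA, had 1 called gene of 4. Fbl encodes fibrillarin, the methyltransferase. It ranged from 3299 in line #7 over a median of 5262 to 5666 in line #3 in parental cells, and from 2371 in line #3 over 2828 to 3501 in line #7 in resistant cells. Parental line #7 stood apart, since the other 5 parental samples were at or above 4063, higher than every resistant sample. Fbl fell by 0.73 on the log2 scale (SE 0.19, limma adjusted p = 0.0138), in 5 of 6 lines. The core proteins Nop56 and Nop58, which hold the methyltransferase on the guide RNA, had differences of -0.35 (SE 0.15, adjusted p = 0.125) and -0.33 (SE 0.20, adjusted p = 0.307). Nop56 ranged from 11821 over 17206 to 20994 in parental and from 10764 over 12686 to 16568 in resistant cells, and Nop58 from 5398 over 8824 to 10782 and from 5266 over 6659 to 9254. Both groups overlapped. Nop56, Nop58, Ppan, Gnl3 and Ncl overlap exons of snoRNAs or other genes on their own strand, so their counts may hold some reads of those genes.

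Rrp9, a protein of the U3 snoRNP, spanned more than the other box C/D genes. In line #3 it went from 1890.5 to 438 normalized counts and in line #7 from 796 to 1709, and its mean difference of -0.62 (SE 0.32) did not pass (adjusted p = 0.214).

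The box H/ACA snoRNP proteins, which turn uridines of rRNA into pseudouridine, had 2 called genes of 4. Dkc1, the pseudouridine synthase dyskerin, had the largest difference of any member. It ranged from 2447 in line #7 over a median of 4418 to 5467 in line #3 in parental cells, and from 1707 in line #10 over 2249.8 to 3185 in line #7 in resistant cells. It fell by 0.88 on the log2 scale (SE 0.24, limma adjusted p = 0.0191), that is 1.84-fold, and was lower in 5 of 6 lines. The only resistant sample above its own parental sample was that of line #7. At P5 line #3 had 3197, line #7 had 2951 and line #9 had 4599.

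Gar1, a small core protein of the same particle, ranged from 1398 over 1581 to 1897 in parental cells and from 824 over 1122 to 1406 in resistant cells. The 2 ranges touched only where resistant line #7 passed parental line #4. Gar1 fell by 0.55 on the log2 scale (SE 0.16, limma adjusted p = 0.0241), in 6 of 6 lines. Nhp2, another core protein, ranged from 1314 over 3478 to 4177 in parental and from 1831 over 2797 to 4094 in resistant cells, with a difference of -0.08 (SE 0.27, 95% interval -0.64 to 0.48, adjusted p = 0.88), and its sign turned without line #3 or #4. Nolc1, a chaperone of snoRNPs, was at -0.33 (SE 0.35, adjusted p = 0.585), with a rise from 5032 to 16004 counts in line #7 against lower values in the other 5 lines.

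Among the 9 small subunit factors 1 fell. Imp4, which joins the U3 snoRNP to the precursor, ranged from 1649 in line #7 over 2752 to 3075 in line #9 in parental cells, and from 1225 in line #10 over 1544 to 2799 in line #7 in resistant cells. It fell by 0.66 on the log2 scale (SE 0.21, limma adjusted p = 0.0435), in 5 of 6 lines, and its adjusted p ran from 0.00132 to 0.179 over the alternatives tried, the widest range of the 5. Line #7 held both the lowest parental and the highest resistant value. The partner protein Imp3 ranged from 976 over 1128 to 1291 in parental and from 485 over 1391 to 1610.4 in resistant cells, with a difference of -0.01 (SE 0.25, adjusted p = 0.989). Its resistant value in line #9, 485, was the one far below the parental range, and the sign turned without line #9 or #10. Heatr1, a scaffold of the early particle that also takes part in RNA polymerase I transcription, ranged from 2419.7 over 4441 to 4866 and from 1643 over 3094 to 4330.1, a difference of -0.44 (SE 0.27, adjusted p = 0.284). The other small subunit factors ran from -0.28 for Nob1, the nuclease of the last rRNA cut, to 0.30 for Bysl, and none passed. Rrp12, an export factor, was at 0.04 and Tsr1, a late maturation factor, at 0.03, and both signs turned when samples were rescaled to the same upper quartile or the same total.

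None of the 12 large subunit factors passed, with 10 of 12 differences negative and 2 at an unadjusted p below 0.05. Nop16, a nucleolar assembly factor, ranged from 1031 in line #7 over 1780.4 to 2176 in line #9 in parental and from 568 in line #3 over 981 to 1526 in line #7 in resistant cells. Its difference was -0.74 (SE 0.26, limma adjusted p = 0.0576), and -0.74 with an adjusted p of 0.0217 once lines were paired. The proteins of the PeBoW complex, which processes the precursor of the large subunit rRNA, differed among themselves. Wdr12 was at -0.55 (SE 0.20, adjusted p = 0.0769, and 0.034 paired), Pes1 at -0.01 (SE 0.17, 95% interval -0.37 to 0.36, adjusted p = 0.982) and Bop1 at 0.39 (SE 0.33, adjusted p = 0.483). Wdr12 ranged from 1559 over 2705 to 3258 in parental and from 1291 over 1689 to 2146 in resistant cells, whereas Pes1 ranged from 3152 over 5464 to 5691 and from 3995 over 4579 to 6285. The sign of Pes1 turned without line #3, #4 or #9. Rrp1b, a nucleolar partner of a protein phosphatase, was lower in 6 of 6 lines, at -0.54 (SE 0.27, adjusted p = 0.193, and 0.0252 paired). The rRNA methyltransferase Nop2 was at -0.41, the helicase Ddx18 at -0.46, Ppan at -0.29, the GTPase Gnl3 (nucleostemin) at -0.25, Noc2l and Nip7 each at -0.20, and Mrto4 at 0.14.

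The abundant nucleolar RNA-binding proteins had wide spreads, and none of the 4 passed. Ncl, nucleolin, was the member with the highest mean count in parental cells, while in resistant and P12 cells that was Npm1. It ranged from 24240.1 in line #7 over 64116 to 77381 in line #9 in parental cells, and from 23241 in line #4 over 29839.8 to 46584 in line #7 in resistant cells. Its difference was -0.81 (SE 0.29, limma adjusted p = 0.0636, 0.0325 paired), and the 5 parental samples other than line #7 were all at or above 60569, higher than any resistant sample. Lyar ranged from 1007 over 2561 to 3262 and from 858 over 1491 to 2536, a difference of -0.62 (SE 0.28, adjusted p = 0.14). Ddx21, a helicase that binds rRNA and snoRNAs, ranged from 4721 over 10652 to 13517 and from 4299 over 8469 to 13931, a difference of -0.14 (SE 0.34, adjusted p = 0.828). Npm1, nucleophosmin, was at -0.47 (SE 0.23, adjusted p = 0.172); the gene has processed copies in the genome, so its count is uncertain. Per kb of merged exon length, parental Npm1 was the highest member at 18421 ± 4824 normalized counts per kb (SD, n = 6), followed by Ncl at 5834 ± 1784 and Nop56 at 4124 ± 847.

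**Figure D2:**
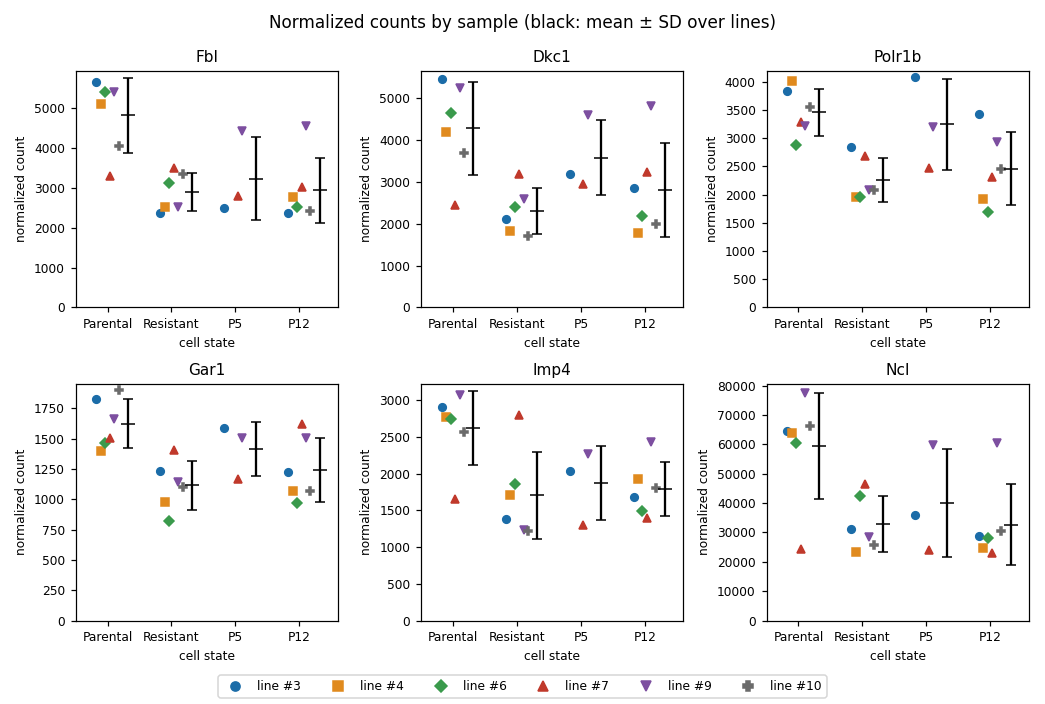
Normalized counts (y axis, from 0) of the 5 called genes and of Ncl in each sample, by state (x axis). Symbols are lines, and the black bar is the mean ± SD over the lines of a state. For Fbl, Dkc1, Imp4 and Ncl the parental sample of line #7 is the lowest, and for Fbl, Dkc1, Imp4 and Ncl the highest P12 sample is that of line #9.

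The members differed more between lines than between role groups. In resistant against parental cells the median over the 37 members was -0.68 in line #3, where 35 of 37 were lower, and -0.79 in line #4, where 36 were. It was -0.47 in line #9 with 30 lower and -0.32 in line #10 with 33 lower. Line #6 was split, with a median of -0.08 and 21 lower. In line #7 the median was 0.76, and 34 of 37 were higher in the resistant sample. The medians over all genes tested lay between -0.03 and 0.02 in the 6 lines. With 1 sample per line and state, the difference between lines could not be tested.

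The reversal in line #7 came from both ends. Its parental sample was the lowest of the 6 parental samples for 34 of 37 members, and its resistant sample was the highest of the 6 resistant samples for 19. Rrp12 had the largest rise, 2.43 on the log2 scale, and only Polr1b, Gar1 and Rrp1b were lower. The mean log2 level of the members, set to 0 over all 21 samples, was -0.45 in parental line #7 and between 0.26 and 0.52 in the other parental samples. In resistant cells line #7 had 0.37, line #6 had 0.27, and the values lay between -0.28 and -0.14 in the other 4 lines. By role, the 4 nucleolar RNA-binding genes had a mean difference of 1.15 in line #7 and of -1.08, -1.20, -0.15, -0.78 and -1.01 in lines #3, #4, #6, #9 and #10. The mean over the 4 RNA polymerase I genes lay between -0.55 and 0.31 in all lines. Single genes of that group went further, as Polr1b at -1.04 in line #4 and Ubtf at 0.71 in line #7.

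Among other measured genes, Mki67 and Top2a followed these line differences between resistant and parental cells in direction. Myc, Dusp6 and Cdh1 did not, being lower in resistant line #7 too. Mki67, a marker of cycling cells, went from 15559 to 22996 normalized counts in line #7 and was lower in the resistant sample of the other 5 lines, for example 8568 against 20902 in line #3. Top2a, also a cell cycle gene, was at 13595 in parental line #7 and at 23929.8 or above in the other parental samples. After withdrawal line #3 differed: from resistant to P12 cells Mki67 rose from 8568 to 13565 and Top2a from 16894 to 25290. In that line 24 of 37 members were lower at P12. In lines #6, #7, #9 and #10 both genes went in the direction of most members, and in line #4 only Mki67 did. Dusp6, a target of ERK signalling that reports drug action, was between 4.49 and 60.7 in 5 resistant samples and at 681 in resistant line #7, against 5249 to 9449 in parental cells. It fell by 7.31 on the log2 scale (SE 0.75, limma adjusted p = 6.31e-06). Myc was lower in the resistant sample of 5 lines, down to 437 from 8742 in line #3. In line #7, where 34 members were higher, Myc went from 7230 to 4835. In line #9, where 30 members were lower, Myc was at 15626 against 15120. Its own difference was -1.43 (SE 0.66, adjusted p = 0.15, 0.0154 paired). All 5 epithelial markers tested had negative differences as well, with a median of -2.76. The adhesion protein Cdh1 fell by 7.11 on the log2 scale (SE 1.92, limma adjusted p = 0.0173), in 6 of 6 lines, from a median of 30049 to 58.4 normalized counts, and the other 4 did not pass. The part of these genes in the changes of the members was not tested.

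**Figure D3:**
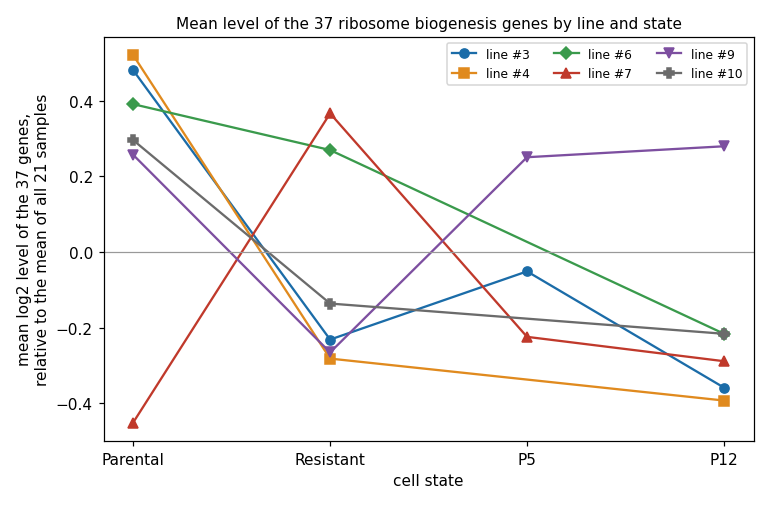
Mean log2 level of the 37 genes in each sample, relative to the mean of all 21 samples (y axis), by state (x axis). Each colored line is a cell line, and lines #4, #6 and #10 have no P5 sample. Line #7 starts lowest at -0.45 and peaks in the resistant state, and line #9 is the one line above 0 at P12, at 0.28.

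Withdrawal was followed at P12 and, in 3 lines, at P5. The comparison with resistant cells and the one above share the resistant samples, so values are given side by side only. In P12 against resistant cells 0 of 37 members were called in either direction by limma, and 2, Rrn3 and Bysl, had an unadjusted p below 0.05, both lower. At that level 1899 of all 19300 genes were lower and 1922 higher. Of all genes 3.2% were called higher and 3.03% lower. The median over the members was -0.13, with 25 negative, where the median over all genes was 0.02, and the members' median turned to 0.035 when samples were rescaled to the same total, which took that of all genes to 0.18. Rrn3 and Ubtf were lower at P12 in all 6 lines, 2 of 37 members, where 8.2% of all genes were.

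Bysl, which helps to release the small subunit from the nucleolus, was the member nearest to a call. It ranged from 1250.4 in line #9 over 2344 to 2779 in line #6 in resistant cells and from 774 in line #7 over 1224 to 1546 in line #9 at P12, a difference of -0.96 (SE 0.29, limma adjusted p = 0.0531). It was lower in 5 of 6 lines, and line #9, the exception, had the lowest resistant and the highest P12 value. Pairing the lines gave 1 called member, Bysl, at an adjusted p of 0.0277 (6.6% of all genes were called lower in that fit). Rrn3 was at -0.44 (SE 0.19, adjusted p = 0.196).

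In lines #3, #4, #6 and #10 the median over the members was no nearer to the parental level at P12 than in resistant cells. The genes called lower in resistant cells differed in sign at P12 against resistant cells, and none was called. Dkc1 was at 0.23, Gar1 at 0.15, Imp4 at 0.11, Polr1b at 0.094 and Fbl at -0.0020. In P12 against parental cells 36 of 37 differences were negative, all but that of Imp3, with a median of -0.44. Of all genes 47.8% were negative, with a median of 0.03. By limma 0 of 37 were called, while 14 had an unadjusted p below 0.05, all lower. At that level 1511 of all 19300 genes were lower. Of all genes only 0.301% were called higher and 0.358% lower in this comparison (0.316% lower without line #7), so it called few genes of any kind. The smallest adjusted p was that of Fbl, at -0.73 (SE 0.19, adjusted p = 0.0781), which ranged from 2371 over 2642 to 4548 at P12 and was below its own parental level in 6 of 6 lines. With lines paired Fbl and Polr1b were called lower, at adjusted p of 0.0359 and 0.0377 (2.98% of all genes were). Polr1b was at -0.53 (SE 0.17, adjusted p = 0.153 unpaired). Without line #9, Fbl alone was called (1.28% of all genes were called lower).

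The 8 members that were below the parental level in all 6 lines at P12 were Polr1b, Fbl, Nop56, Nop58, Heatr1, Imp4, Noc2l and Ncl, 8 of 37 where 6.96% of all genes were. Nop56 ranged from 10426 over 10884 to 14400.1 at P12 (difference from parental -0.52, SE 0.15, limma adjusted p = 0.113) and Nop58 from 4723 over 5732 to 8724 (-0.52, SE 0.20, adjusted p = 0.227). Heatr1 ranged from 1631 over 2222 to 3973 (-0.78, SE 0.27, adjusted p = 0.17). Ncl ranged from 23157 in line #7 over 28457 to 60288 in line #9 (-0.86, SE 0.29, adjusted p = 0.163). For Nop56, Nop58, Heatr1 and Ncl the highest P12 sample was that of line #9, and for Polr1b that of line #3.

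The H/ACA genes differed at P12: the means of Dkc1 and Gar1 lay between those of resistant and parental cells, and the means of Nhp2 and Nolc1 lay below both. Dkc1 ranged from 1785 over 2519 to 4805 (difference from parental -0.65, SE 0.24, limma adjusted p = 0.207) and Gar1 from 969 over 1146 to 1624 (-0.40, SE 0.16, adjusted p = 0.232). Nhp2 ranged from 1151 over 1982 to 2621 (-0.63, SE 0.27, adjusted p = 0.266). For Dkc1 and Gar1 4 of 6 lines were higher at P12 than in the resistant state, and for Nhp2 1 of 6.

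Lines took different courses after withdrawal. Against their own parental sample, the median over the members at P12 was -0.78 (#3), -0.80 (#4), -0.59 (#6) and -0.54 (#10), with 34 to 37 of 37 members lower in each. In line #4 all 37 were lower. In line #9 the median was -0.03 with 20 lower, and in line #7 it was 0.16 with 11 lower. Line #9 got there by a rise: against its resistant sample 34 of 37 members were higher at P12, with a median of 0.58. Line #7 got there by a drop, with 32 of 37 lower and a median of -0.62, and line #6 dropped too, with 34 lower and a median of -0.43. The P12 sample of line #9 was the highest of the 6 P12 samples for 26 of 37 members.

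The 3 lines with P5 samples also differed in direction there. Against the resistant sample the median was 0.20 in line #3 with 28 of 37 higher, 0.59 in line #9 with 34 higher, and -0.54 in line #7 with 36 lower. From P5 to P12 line #3 lost ground again, with 35 of 37 lower and a median of -0.27, while lines #7 and #9 had medians of -0.05 and 0.02. By limma 0 of 37 members were called at P5 against resistant cells, where 1.18% of all genes were higher and 0.891% lower, and 3 members had an unadjusted p below 0.05. Of these Polr1b was at 0.51 (SE 0.21, adjusted p = 0.248) and Dkc1 at 0.64 (SE 0.30, adjusted p = 0.305), both higher in 2 of 3 lines, and Bysl was at -0.82 (SE 0.35, adjusted p = 0.262). Among all 19300 genes 1456 were higher and 1520 lower at an unadjusted p below 0.05. These differences set 3 P5 samples against all 6 resistant samples, so they also hold differences between lines. With the cell line as a block 0 members had an unadjusted p below 0.05. Against parental cells 0 were called as well, where 0.00518% of all genes were higher and 0.0415% lower, and Fbl and Rrp9 had an unadjusted p below 0.05. At that level 970 of all 19300 genes were lower, and with the block 1 member was. At P5 Fbl had 2494 counts in #3, 2791 in #7 and 4427 in #9, below its parental level in 3 of 3 lines (-0.60, SE 0.23, adjusted p = 0.405).

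Other genes of the pathway, listed by their roles, were read beside the members. Of 11 other RNA polymerase I genes tested 0 were called by limma in resistant against parental cells (0 at an unadjusted p below 0.05), with a median of -0.16. Of 43 other small subunit factors 1 fell, Wdr3, a U3 snoRNP component, by 0.61 on the log2 scale (SE 0.20, limma adjusted p = 0.0415), with a median of -0.20 over the list. Of 48 other large subunit factors 3 fell and 2 rose, with a median of -0.16. The shares called lower were 2.33% of these small subunit and 6.25% of these large subunit factors. Of all genes tested 7.9% were called lower and 7.73% higher. Las1l, which cuts the spacer of the precursor, went from 3208 ± 733 in parental to 1458 ± 387 in resistant cells (SD, n = 6 each) and fell by 1.14 (SE 0.24, adjusted p = 0.00359), in 6 of 6 lines. Nsa2 fell by 0.49 and Rrp8, an rRNA methyltransferase, by 0.66. Rbm28 rose by 1.11 (SE 0.31, adjusted p = 0.0203) and the GTPase Gnl2 by 0.69 (SE 0.22, adjusted p = 0.0394), both in 6 of 6 lines. Of all 19300 genes 1832 were lower and 1736 higher in every line. Rbm28 dropped again at P12 against resistant cells, by 1.36 (SE 0.31, adjusted p = 0.0115), from 11156 ± 6853 to 3860.2 ± 969.

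At P12 against resistant cells the median over the cytosolic ribosomal protein genes was positive, and that over the members was -0.13. The latter turned to 0.035 when samples were rescaled to the same total. In line #9 both medians were positive, at 0.27 for the ribosomal protein genes and 0.58 for the members. In resistant against parental cells 19 of 79 fell (24.1%, against 7.9% of all genes) and 0 rose, with a median of -0.24. Rpl18 fell by 0.61 (SE 0.11, limma adjusted p = 0.00143). At P12 against resistant cells 74 of the 79 differences were positive with a median of 0.23 and 0 were called, though 21 had an unadjusted p below 0.05 in that direction. At that level 1922 of all 19300 genes were higher. At P12 against parental cells the median was -0.02, where that of the members was -0.44. Line #7 was again the one with a positive median in the resistant state, 0.25. The difference between the lists was not tested, and ribosomal protein genes have many processed copies, so their counts are uncertain. The 78 mitochondrial ribosomal protein genes had a median of -0.05 in resistant against parental cells, with 2 lower and 1 higher.

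**Figure D4:**
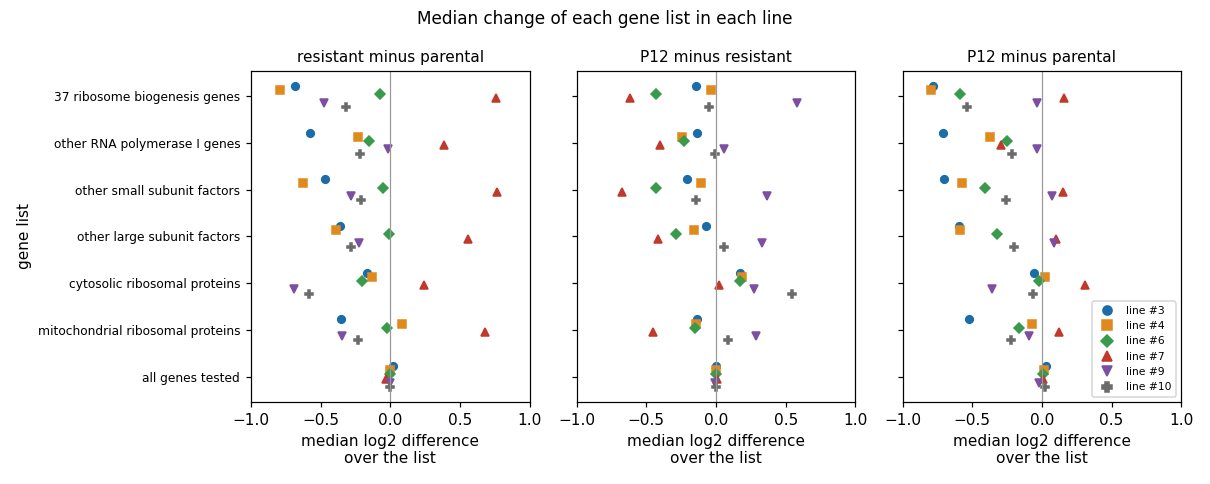
Median log2 difference (x axis) over each gene list (y axis) in each line (symbols) for resistant minus parental, P12 minus resistant and P12 minus parental cells (3 panels). For the 37 genes and the lists of other RNA polymerase I genes and subunit factors, line #7 is at the right in the first panel and line #9 in the second. The cytosolic ribosomal protein genes of 4 lines lie near 0 in the third panel, with line #7 above and line #9 below, and in that panel the 37 genes have a median of -0.54 or below in 4 lines.

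Across the series, samples held an estimated 24100000 to 42700000 reads on genes, with no member below 438 normalized counts in any sample, so counting error is small beside the spread between lines. The sum of normalized counts ran from 28600000 to 37100000. Of 6 epithelial markers Epcam was listed at 0 in 20 of 21 samples, and the summed level of the list ran from 15942 to 282743 in parental and from 1014 to 209982 in resistant samples. The summed level of 12 markers of immune, endothelial, acinar and islet cells ran from 179 to 376 in parental and from 252 to 3079.7 in resistant samples, where Csf1r reached 2530.0. Cd3e, Ptf1a, Cpa1 and Ins2 were below 10 in every sample. Their part in the results was not tested. More than one sequencer model was used in the study and the labels do not assign them to samples, so no comparison within a sequencer was possible. On GRCm38 the 37 genes lie on 18 chromosomes with at most 5 on any, as for Fbl on chr7:28169710-28179269, Dkc1 on chrX:75095854-75109777, Polr1b on chr2:129100995-129126594, Gar1 on chr3:129824912-129831396 and Imp4 on chr1:34439851-34449356 (GENCODE M21), and 14 overlap an exon of a gene on the other strand only.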

How the data were processed

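Poly(A) RNA of 21 samples was sequenced by the authors with a stranded kit. Per the labels and the study's methods, the authors trimmed adapters, quantified transcripts with Salmon 0.12, summed them to genes and normalized them with DESeq2 1.18 (build mm10). The deposited signal values are these gene counts as the authors scaled them between samples, and raw counts were not used here. Annotation release and strand setting are not given in the sources used here. The normalization assumes that most genes keep their level, so a change of total mRNA would not show. Depth was estimated from the step between low values, of which 35.8% to 63.5% per sample lay within 0.02 of a whole number of reads, so no count test was run.

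Values were analysed as log2(value + 1) with limma 3.58.1 (R 4.3.3; lmFit and eBayes with trend), on 19300 of 34478 genes with at least 10 in at least 3 samples, all 4 states in 1 fit without covariate, with Benjamini-Hochberg adjustment over all genes tested and calls below 0.05. The fit was tested on simulated data. Alternatives were other pseudocounts, filters, scalings, variance models, sample sets and thresholds, each line left out, and the cell line as a block. Same-line samples share a mouse tumor, so the line pairs them: deviations from the state means correlated across genes at a mean r of 0.400 over 27 same-line pairs and -0.0798 over 135 pairs of different lines. Whether samples of a line came from separate cultures is not stated beyond the state. The p-values of the main fit rest on the spread between lines within a state, pooled over the states. That fit takes all 21 samples as independent, although the lines recur across states. The p-values of the paired fit rest on the spread left once the level of each line is taken out.

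The members and lists were chosen with earlier results of these data known. Members were taken in 6 role groups; full ranges are given for the 2 smallest and the largest p of each group in resistant against parental cells, and of other lists up to 3 called genes in each direction. Mki67, Top2a, Rrp9, Bysl, Rrp12 and Nolc1 were described further after their values were seen. Of 14 other RNA polymerase I genes listed, 11 were found under the listed name, and of 47 other small subunit factors 43. Motifs and coordinates came from RefSeq and GENCODE tables with Python 3.11.15. The columns used were the 21 of the deposited table, with no fold changes or p-values by the authors. Some items, among them genes that this rule would name, are not reported here.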

Additional observations from a re-analysis of the deposited data

Results flagged for a closer look

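In groups of 6 samples, the lowest or the highest value was set against the nearest of the others, and 16 of 147 groups tested stood apart at Dixon's 95% critical value, where chance gives about 1 in 20, here 7.35. Members of one sample are not independent, so their number is not evidence by itself.

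Among the members the samples that stood apart were those of lines #7 and #9. At P12 line #9 was far above the other lines for Fbl (4548, others 2371 to 3014), Tsr1 (5195, others 3691 to 4092), Pes1 (6371, others 3820.0 to 4334), Ddx18 (5322, others 2411 to 3274), Ncl (60288, others 23157 to 30470.2) and Npm1 (58590.0, others 29052 to 36244). Parental line #7 was far below the other parental samples for Imp4 (1649, others 2563 to 3075), Nob1 (1436, others 2240.1 to 2682), Ddx18 (2255, others 4417 to 5374) and Ncl (24240.1, others 60569 to 77381).

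Of the other genes named, Top2a was low in parental line #7 (13595, others 23929.8 to 26718), and Dusp6 was high in resistant line #7 (681, others 4.49 to 60.7). Myc was high in line #9 in parental (15120.0, others 6699 to 8742) and in resistant cells (15626, others 437 to 4835). Nsa2 was high in parental line #9 (5218, others 3099 to 3867) and Gnl2 in resistant line #4 (8996, others 2371 to 3962).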

How the results depend on the processing

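The direction of the median over the members held in resistant against parental and in P12 against parental cells under every alternative run. In P12 against resistant cells it turned from -0.13 to 0.035 with samples scaled to the same total, and in P5 against resistant cells from 0.078 to -0.12 without line #9. In resistant against parental cells 5 members were called lower. The count was 9 with the cell line as a block, 2 with only these states and the block, and 0 at the study's threshold of an adjusted p below 0.01 with a log2 change beyond 1 (limma, 10 members at an unadjusted p below 0.05), and it ran from 0 (without line #4) to 13 (without line #7) as lines were left out. It lay between 4 and 7 under the other alternatives. In P12 against resistant cells 0 became 1 lower with genes of a mean of at least 100, 1 with the block and 0 to 1 as lines were left out. In P12 against parental cells 0 became 2 with the block and 0 to 1 as lines were left out. The block changed none of the counts of members called higher, and none at P5.

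With samples scaled to the same upper quartile, the sign turned in resistant against parental cells for Rrp12 (-0.0010), Tsr1 (-0.011) and in P12 against resistant cells for Fbl (0.090), Nip7 (0.081), Ppan (0.071), Ddx18 (0.082), Ncl (0.042). With samples scaled to the same total, the sign turned in resistant against parental cells for Rrp12 (-0.036), Tsr1 (-0.046) and in P12 against resistant cells for Fbl (0.16), Pes1 (0.035), Nip7 (0.15), Ppan (0.14), Noc2l (0.060), Ddx18 (0.15), Gnl3 (0.021), Ncl (0.11). With each line left out in turn, the log2 difference in resistant against parental cells spanned 0 for Nhp2 (-0.42 to 0.10), Utp20 (-0.29 to 0.10), Rrp12 (-0.44 to 0.40), Imp3 (-0.16 to 0.27), Tsr1 (-0.16 to 0.13), Pes1 (-0.17 to 0.091), Mrto4 (-0.098 to 0.32), Ddx21 (-0.48 to 0.16). With each line left out in turn, the log2 difference in P12 against resistant cells spanned 0 for Polr1a (-0.015 to 0.25), Fbl (-0.17 to 0.090), Nolc1 (-0.50 to 0.026), Imp3 (-0.12 to 0.18), Imp4 (-0.062 to 0.33), Nob1 (-0.071 to 0.099), Nop16 (-0.0018 to 0.22), Nip7 (-0.13 to 0.068), Ppan (-0.079 to 0.062), Ddx18 (-0.19 to 0.099), Ncl (-0.28 to 0.14), Npm1 (-0.16 to 0.18), Lyar (-0.14 to 0.18). With each line left out in turn, the log2 difference in P12 against parental cells spanned 0 for Ubtf (-0.18 to 0.012), Imp3 (-0.046 to 0.15). None of these members was called in the comparison concerned with all lines and the deposited scaling, and the cause was not tested.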
